A study of Mus musculus with 8 samples.

Results

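*Cxcl1*, *Cxcl2*, *Cxcl3* and *Cxcl5* encode CXC chemokines that attract neutrophils through the receptor CXCR2. These 4 genes were chosen by name, from among the ligands of CXCR2, with earlier results of these data known. They are called the CXCR2 ligands below. The 4 genes were taken from the 54658 genes of a bulk RNA-Seq table of primary murine articular chondrocytes, the cells that make and maintain joint cartilage. Cells isolated from the femoral head cartilage of wild-type mice, aged 3 weeks, were plated and, a day later, given IL-1β at 1 ng/mL or vehicle, and total RNA was taken after 24 h. There were 4 samples per group, and IL-1β, a proinflammatory cytokine tied to osteoarthritis, was the only difference between the groups that the labels name. The mice carried no named allele, and their strain, sex and number were not given in the sources used here. Nothing states that the 4 samples of a group came from separate cultures or animals, so the p-values measure the spread between these samples, which may be technical.

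The totals were 10992355 to 17104351 counts with IL-1β and 13970959 to 17456063 with vehicle, at which 3 counts correspond to 0.173 to 0.270 CPM (counts scaled to a common library size, here with TMM factors that correct for RNA composition). Levels are the mean TMM-scaled CPM ± SD (n = 4). A gene was called when the edgeR quasi-likelihood test gave a Benjamini-Hochberg adjusted p-value under 0.05 and a log2 fold change above 1 or below -1, over 14404 genes, those that exceeded 1 CPM in 4 samples or more. For this filter, CPM was taken on the total counts, without TMM factors. The median log2 fold change of all genes tested was -0.00120. Chi-square per degree of freedom over genes was 1.83 to 5.25 between samples of a group and 45.5 to 56.6 between samples of different groups, so no pair agreed within sampling noise.

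CXC chemokines are small secreted proteins that bind heparan sulfate on cell surfaces and in matrix and so form gradients along which neutrophils move. Cytokines such as IL-1β, TNF and IL-17 are known to switch on the genes of CXCR2 ligands through NF-κB and its partners, and AU-rich elements in the 3′ UTR mark the mRNAs for rapid decay. In an inflamed joint, neutrophils gather in the synovial fluid, where they are known to release proteases and oxidants that damage cartilage.

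All 4 genes lie on the plus strand of mouse chromosome 5 (GRCm38, also called mm10), within 146.579 kb of each other. *Cxcl5* (ENSMUSG00000029371.7) lies from 90759360 to 90761624 and *Cxcl3* (ENSMUSG00000029379.10) from 90786103 to 90789600. *Cxcl1* (ENSMUSG00000029380.11) follows from 90891241 to 90893115 and *Cxcl2* (ENSMUSG00000058427.10) from 90903871 to 90905938. Each main coding transcript has 4 exons, with an open reading frame of 96 codons in *Cxcl1*, 100 in *Cxcl2* and *Cxcl3* and 132 in *Cxcl5*.

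RefSeq promoter windows of GRCm38.p6, from 250 bases before to 50 bases after the annotated start, were at hand for 3 of the 4 genes, *Cxcl1*, *Cxcl2* and *Cxcl3*. The stretches below are shown because the same 10 letters stand in each of them, in capitals, with a first base 71, 97 and 73 bases before the start.
*Cxcl1*, chr5:90891165-90891192: ctgtactccGGGAATTTCCctggcccgg
*Cxcl2*, chr5:90903793-90903820: ctgagctcaGGGAATTTCCctggtcccc
*Cxcl3*, chr5:90786019-90786046: agctgcgggGGGAATTTCCccagcccgg
These letters match the κB consensus, the sequence that NF-κB dimers are known to bind. GGGAATTTCC stood on either strand in 29 of the 32851 RefSeq promoter windows of the same length (0.0883%), and the κB consensus, whose matches here overlap GGGAATTTCC, in 1480 (4.51%). A TATA-type stretch, ATAAAAGG (capitals below), stood nearer to the start in the same 3 windows, with its first base 34, 57 and 29 bases before it, and on either strand in 577 of all windows (1.76%).
*Cxcl1*, chr5:90891201-90891228: agtttcgagcATAAAAGGggctcgcggg
*Cxcl2*, chr5:90903832-90903859: gacatcgtgcATAAAAGGagctctcggg
*Cxcl3*, chr5:90786062-90786089: gtcatcatgtATAAAAGGggttcgcagg
Letters of the C/EBP type (TTGCNNAA) and of the AP-1 type (TGANTCA) stood in none of the 3 windows, against 10.8% and 7.81% of all promoters. GGGAATTTCC and ATAAAAGG were chosen after the sequences had been seen. Among tested genes outside the CXCR2 ligands, 10 had GGGAATTTCC in this window and 1 of these, *Nfkbia*, was called higher, while 261 of 9918 genes with any promoter window (2.63%) were. The κB consensus stood in 617 such genes, of which 5.19% were called higher. The share was 5.61% for ATAAAAGG, and also 5.36% for TTGCNNAA and 6.30% for TGANTCA, which the 3 windows lack.

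The 3′ UTR of the main transcript (GENCODE vM21) was 592 bases long in *Cxcl1*, 734 in *Cxcl2*, 645 in *Cxcl3* and 1111 in *Cxcl5*. ATTTA, the core of AU-rich elements, occurred 7, 11, 5 and 5 times, respectively. Per kilobase this was 11.8, 15.0, 7.75 and 4.50, against a median of 1.31 over the 11809 tested genes with a 3′ UTR. At least as high a density was found in 0.559% of these genes for *Cxcl1*, 0.263% for *Cxcl2*, 1.91% for *Cxcl3* and 8.37% for *Cxcl5*. At least as many copies were less rare, in 13.5%, 5.23%, 22.1% and 22.1% of these genes, respectively. Their median 3′ UTR length was 1115 bases. The stretches of 28 bases that hold the most copies are shown with ATTTA in capitals, since they differ between the genes, with 4 copies in *Cxcl1* and *Cxcl2*, 2 in *Cxcl3* and 1 in *Cxcl5*.
*Cxcl1*, chr5:90892608-90892635: cctATTTATTTAtgtATTTATTTAttcc
*Cxcl2*, chr5:90905327-90905354: tATTTATTTAtctatgtATTTATTTAtt
*Cxcl3*, chr5:90787637-90787664: catcttATTTAatgtttATTTAatatca
*Cxcl5*, chr5:90760648-90760675: ctcacaagtgtATTTAgcaaaaatattt

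After IL-1β, all 4 of these CXCR2 ligands were called higher, while 2.86% of all genes tested were called higher, 2.35% lower and 5.21% in either direction. Since the 4 genes were chosen with earlier results of these data known, their calls are not a test against these shares. *Ppbp*, which also acts through CXCR2, was not among them and was too scarce to be tested. The summed level of the 4 ligands was 17.8 ± 0.834 CPM under vehicle and 578.9 ± 23.5 CPM after IL-1β (SD, n = 4). *Cxcl1* had the highest level per kilobase in both groups, *Cxcl5* had the largest fold change and *Cxcl2* the smallest. For each gene, all 4 IL-1β samples lay above all 4 vehicle samples, as they did in 18.7% of all genes tested (exact permutation test, two-sided, p = 0.0286 for each gene, the smallest p that 4 samples against 4 allow). *Cxcl3* and *Cxcl5* had no vehicle sample above 1 CPM and passed the filter on low counts only through the IL-1β samples. In bulk RNA, more cells that express a gene and more RNA per cell cannot be told apart.

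**Figure D1:**
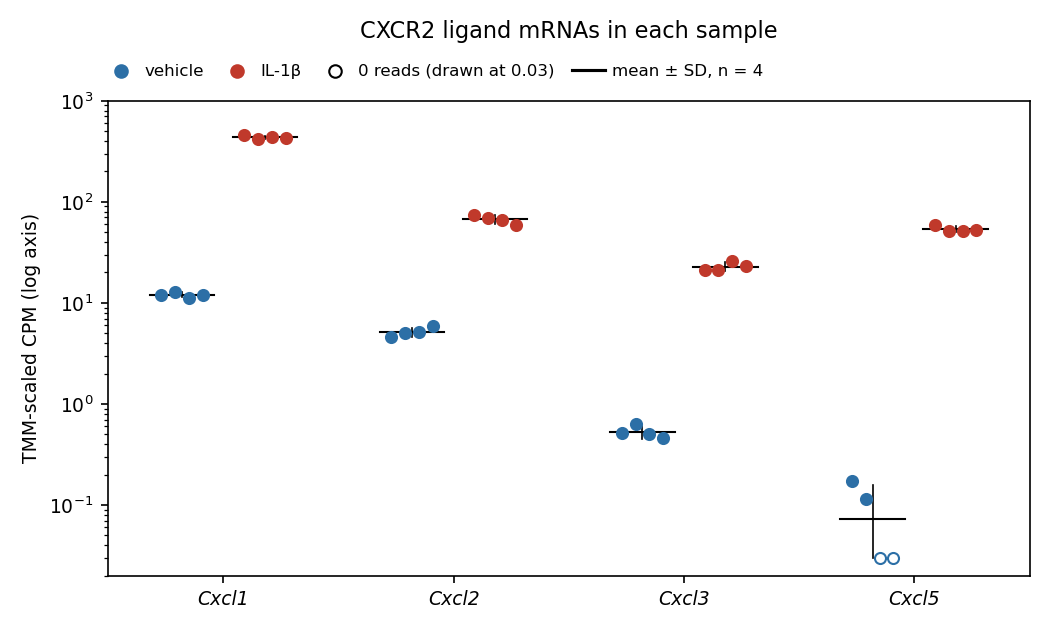
TMM-scaled CPM on a log axis of *Cxcl1*, *Cxcl2*, *Cxcl3* and *Cxcl5* in each of the 4 vehicle (blue) and 4 IL-1β (red) samples, with the mean ± SD as black lines and samples without a read as open circles drawn at 0.03. The groups are apart for every gene, from 12.1 to 435.5 CPM for *Cxcl1* down to 0.0722 to 53.7 CPM for *Cxcl5*.

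*Cxcl1*, also known as KC in the mouse, is a strong neutrophil attractant that stromal cells secrete early in inflammation. It had 457, 419, 436 and 429 CPM in the IL-1β samples and 12.0, 12.9, 11.3 and 12.1 CPM in the vehicle samples. The lowest IL-1β sample was 32.6 times the highest vehicle sample, and the values within each group lay close together. The mean was 435.5 ± 16.0 CPM after IL-1β and 12.1 ± 0.661 CPM under vehicle, a log2 fold change of 5.17 (SE 0.0452, adjusted p = 3.98e-34, edgeR). These values rest on 5073 to 7344 reads per IL-1β sample and 158 to 223 per vehicle sample. The coefficient of variation was 3.67% with IL-1β and 5.48% with vehicle, where counting error alone gives 1.28% and 7.19%. By level per kilobase of deposited length, *Cxcl1* went from rank 5712 with vehicle to rank 144 with IL-1β of the 14404 genes tested.

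*Cxcl2* is known from macrophages as well as stromal cells and acts on the same receptor. Its levels were 74.6, 69.1, 65.5 and 58.4 CPM after IL-1β and 4.56, 5.03, 5.21 and 5.85 CPM under vehicle. The highest vehicle sample and the lowest IL-1β sample were 9.99-fold apart, the narrowest gap among the CXCR2 ligands. The means of 66.9 ± 6.78 and 5.16 ± 0.535 CPM gave a log2 fold change of 3.70 (SE 0.0816, adjusted p = 1.54e-24, edgeR). With 824 to 1102 reads per IL-1β sample and 73 to 89 per vehicle sample, the ratio of the pooled counts was 12.9 (95% interval 11.5 to 14.5, counting error only). Its rank by level per kilobase went from 9165 to 1264.

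*Cxcl3*, a close relative of *Cxcl2*, was scarce without IL-1β. It had 0.519, 0.636, 0.499 and 0.460 CPM in the vehicle samples, from 9, 11, 7 and 7 reads. With IL-1β it had 21.3, 21.0, 26.0 and 23.0 CPM, from 236 to 437 reads. Every vehicle sample was above the floor of 3 counts, so the gene was detectable in all 8 samples. The log2 fold change was 5.41 (SE 0.150, adjusted p = 3.99e-22, edgeR), and the ratio of the pooled counts was 43.3 (95% interval 30.8 to 62.8, counting error only). Mean levels were 22.8 ± 2.29 and 0.528 ± 0.0755 CPM. The deposited gene length of *Cxcl3*, 3498 bases, covers the whole gene with its introns, while the coding transcript has 1016 bases. The same holds for *Cxcl1* (1875 against 953 bases) and *Cxcl2* (2068 against 1109). For *Cxcl5* the 2 lengths are closer, at 1863 and 1575 bases. *Cxcl2* and *Cxcl3* share 61 windows of 50 bases in their main transcripts (5.75% and 6.31%), and reads from these could be given to either gene or dropped.

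*Cxcl5*, called LIX in the mouse, is known mainly from epithelial and stromal cells, where IL-17 and IL-1 induce it. The vehicle samples held 3, 2, 0 and 0 reads of it and the IL-1β samples 655, 714, 866 and 744. In CPM these were 0.173, 0.116, 0 and 0 with vehicle, where 3 counts in the last 2 samples would be 0.214 and 0.197 CPM, and 59.0, 51.5, 51.4 and 52.8 with IL-1β. The gene was thus at or under the floor in every vehicle sample and well above it in every IL-1β sample. Its mean level was 53.7 ± 3.61 CPM after IL-1β and 0.0722 ± 0.0866 CPM under vehicle. Its log2 fold change of 9.27 (SE 0.167, adjusted p = 1.29e-26, edgeR) was the second largest among all genes tested and depends on the prior count (9.54 from the group means without one). The pooled counts of 2979 against 5 reads gave a ratio of 681 (95% interval 291 to 2098, counting error only). This interval is wider than the SE of 0.167 would give, since that SE was worked back from the F statistic. The fitted log2 fold change was 10.02 without vehicle replicate 1, which holds 3 of the 5 reads.

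The fold changes of the CXCR2 ligands were compared as changes in the log2 ratio of their counts within each sample, with 0.5 added to each count, over 6 pairs (exact permutation test, two-sided, p adjusted over the 6). The ratio of *Cxcl2* to *Cxcl1* changed by -1.48 (SE 0.108, adjusted p = 0.0343), so *Cxcl2* rose less than *Cxcl1*. *Cxcl3* rose more than *Cxcl2* by 1.67 (SE 0.189, adjusted p = 0.0343). *Cxcl5* rose more than *Cxcl1*, *Cxcl2* and *Cxcl3* by 4.28 (SE 0.656), 5.77 (SE 0.744) and 4.10 (SE 0.630), each with an adjusted p of 0.0343 from the exact permutation test. With 2 counts added in place of 0.5, these differences were 3.00, 4.49 and 3.03, with the same adjusted p. In these 5 pairs, all 4 ratios of 1 group lay beyond all 4 of the other. The ratio of *Cxcl3* to *Cxcl1* changed by 0.18 (SE 0.103, adjusted p = 0.171 from the exact permutation test) with overlapping groups, and by -0.028 with 2 counts added in place of 0.5. The vehicle ratios of *Cxcl5* rest on its 5 reads.

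Levels of different genes were compared per kilobase, first on the deposited gene length and then on that of the coding transcript. The deposited lengths of *Cxcl1*, *Cxcl2* and *Cxcl3* include introns. With IL-1β, *Cxcl1* led with 232 ± 8.53 CPM per kilobase (SD, n = 4), and *Cxcl3* was lowest with 6.52 ± 0.653. *Cxcl2* (28.3 to 36.1 CPM per kilobase) and *Cxcl5* (27.6 to 31.7) overlapped, so their order is not resolved by these lengths. On the length of the coding transcript, *Cxcl2* (52.7 to 67.3) lay above *Cxcl5* (32.7 to 37.5), and both above *Cxcl3* (20.7 to 25.5). With vehicle the order was *Cxcl1* (6.43 ± 0.353), *Cxcl2* (2.50 ± 0.259), *Cxcl3* (0.151 ± 0.0216) and *Cxcl5* (0.0387 ± 0.0465), without overlap between neighbours.

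The make-up of the CXCR2 ligand RNA changed with IL-1β. *Cxcl1* took 77.4 ± 0.748% of the summed level per kilobase of deposited length with IL-1β and 70.5 ± 1.90% with vehicle. The share of *Cxcl2* fell to 10.8 ± 0.838% from 27.4 ± 2.56%, and the share of *Cxcl5* rose to 9.60 ± 0.316% from 0.425 ± 0.517%. In vehicle replicates 3 and 4, no read of *Cxcl5* was counted among 238 and 280 reads of the 4 genes, which allows a share of up to 1.26% and 1.07% of these reads. *Cxcl3* took 2.18 ± 0.245% with IL-1β and 1.66 ± 0.207% with vehicle. On the length of the coding transcript, the share of *Cxcl3* was 3.92 ± 0.427% and 2.91 ± 0.359%, and that of *Cxcl5* was 5.94 ± 0.213% and 0.256 ± 0.312%. Without a length, the counts gave 3.95 ± 0.437% and 2.96 ± 0.371% for *Cxcl3* and 9.27 ± 0.320% and 0.406 ± 0.494% for *Cxcl5*. All shares had an adjusted p of 0.0286 over the 4 genes (exact permutation test, two-sided), and the groups did not overlap. For *Cxcl3* the lowest IL-1β share (1.91%) lay just above the highest vehicle share (1.90%), and the adjusted p was 0.0571 (exact permutation test) in 7 of the 8 fits that left out 1 sample. Shares sum to 100% in each sample, so they do not move independently.

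**Figure D2:**
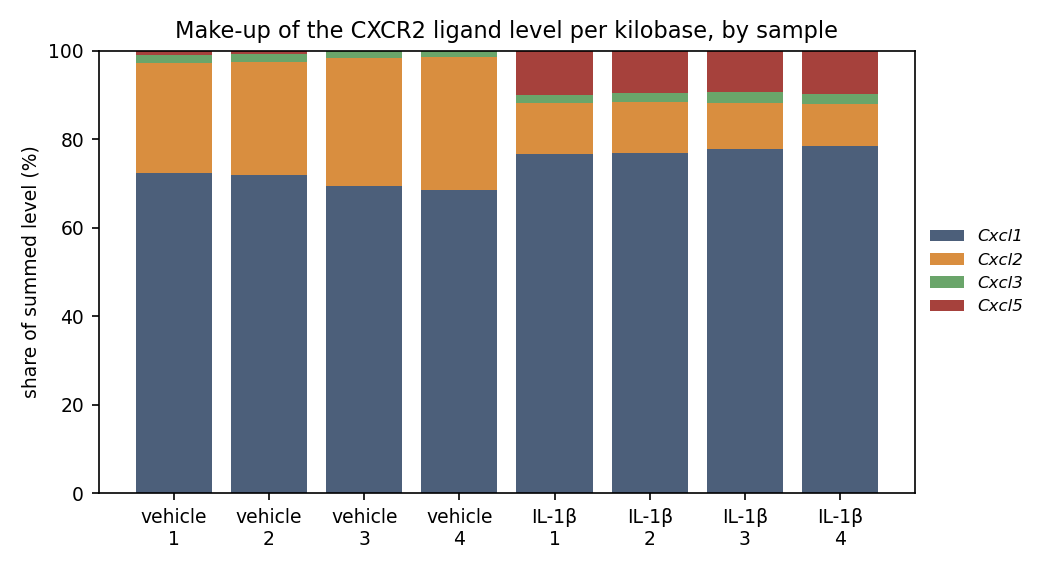
Stacked bars of the share (%) of *Cxcl1*, *Cxcl2*, *Cxcl3* and *Cxcl5* in their summed level per kilobase of deposited gene length, in each of the 4 vehicle and 4 IL-1β samples. *Cxcl2* takes 24.9 to 30.1% of the vehicle bars and 9.67 to 11.5% of the IL-1β bars, where *Cxcl5* takes 9.22 to 9.97%.

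The neighbourhood of the cluster was described next. Within the 146.579 kb from *Cxcl5* to *Cxcl2* the table holds 11 genes, of which 7 were not among the 4, and in none of these 7 did any sample exceed 18 counts. They include *Ppbp*, a platelet chemokine that also acts through CXCR2, with at most 2 counts per sample, and *Cxcl15*, a related chemokine of the lung, with at most 1. Neither passed the filter, and both lie outside the 4 chosen genes. *Pf4*, a platelet chemokine that does not act through CXCR2, had at most 4 counts. *Gm22816*, annotated as an rRNA just downstream of *Cxcl1* on the same strand, had 50 reads in all with IL-1β and 3 with vehicle and was not tested. Reads of nearby or overlapping transcripts cannot be told apart from its own in these counts.

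Of the 21 genes within 200 kb of the cluster, 7 passed the filter and 6 of these were called higher, against 2.86% of all genes tested. Of the 6, 4 were the CXCR2 ligands, which were chosen with earlier results of these data known. The other two, named after their values were seen, were *Ereg*, which encodes the EGF receptor ligand epiregulin, and *Rassf6*. *Ereg* had 43.1 ± 1.10 CPM after IL-1β and 4.89 ± 0.574 CPM under vehicle (log2 fold change 3.13), and *Rassf6* had 2.14 ± 0.360 and 0.721 ± 0.218 CPM (log2 fold change 1.57). *Mthfd2l*, which lies between *Cxcl2* and *Ereg*, was not called, with 10.9 ± 0.572 and 10.5 ± 1.20 CPM (log2 fold change 0.07, adjusted p = 0.641 from edgeR). Outside the ligands, only *Ereg*, *Rassf6* and *Mthfd2l* were tested, too few to describe the region as a whole.

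**Figure D3:**
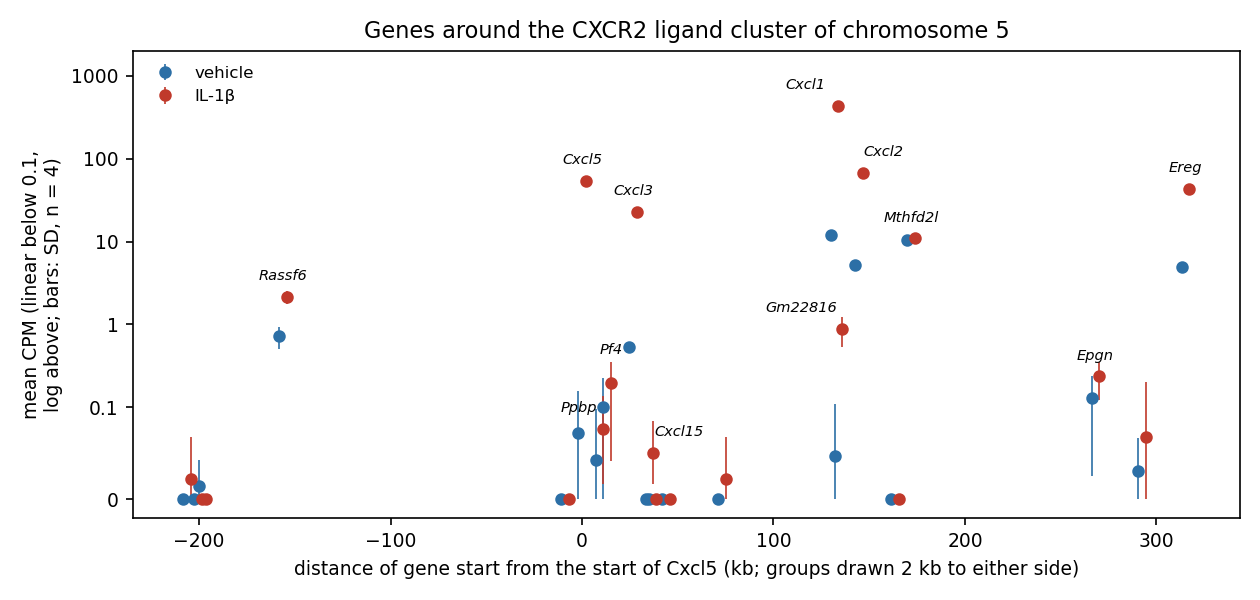
Mean CPM (bars: SD, n = 4) of the genes within 200 kb of the CXCR2 ligand cluster against the distance of their start from that of *Cxcl5* in kilobases, with vehicle in blue, IL-1β in red, and an axis that is linear below 0.1 CPM and logarithmic above. The 4 ligands and *Ereg* reach 22.8 to 435.5 CPM with IL-1β, while *Mthfd2l* stays at 10.5 and 10.9 CPM.

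The genes with the most similar profile to each ligand were found by the root mean square difference of log2(CPM + 1) over the 8 samples, after each gene's vehicle mean was subtracted, a scale that shrinks the change of genes scarce in vehicle. This describes the size of the change and how it varied between samples, and no test was made. Nearest to *Cxcl1* were *Lcn2* (0.191), which encodes the iron-binding protein lipocalin 2, *Nos2* (0.243), the inducible nitric oxide synthase, and *Mmp3* (0.276), stromelysin 1. Nearest to *Cxcl2* were *Vnn1* (0.121), *Il13ra2* (0.193), the decoy receptor for IL-13, and *Ccl20* (0.200), the ligand of CCR6. *Cxcl3* was closest to *Zc3h12a* (0.144), *C3* (0.176) and *Ccl20* (0.225), and *Cxcl5* to *Steap4* (0.0972), *Mmp3* (0.197) and *Hp* (0.584), which encodes haptoglobin. The CXCR2 ligands, left out of this ranking, differed from each other by 0.395 between *Cxcl2* and *Cxcl3*, 0.437 between *Cxcl1* and *Cxcl5*, and 0.787 to 1.57 between the other pairs. *Cxcl1* was thus nearer to *Cxcl5* than *Hp* was. On a log2(CPM + 0.25) scale, 2 of the 3 nearest genes were shared for *Cxcl1* and *Cxcl5*, 1 for *Cxcl2* and 0 for *Cxcl3*. On that scale *Cxcl1* and *Cxcl3* differed by 0.213, less than *Cxcl1* and *Lcn2* did (0.243), so the order depends on the added count.

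Among 10 other CXC and CX3C chemokine genes, 4 passed the filter, 1 was called higher and none lower (median log2 fold change 0.40). The gene called was *Cxcl10*, a CXCR3 ligand that attracts T cells, with 4, 3, 3 and 6 reads in the vehicle samples and 14, 24, 39 and 21 after IL-1β. Its level was 1.70 ± 0.454 CPM after IL-1β and 0.253 ± 0.0972 CPM under vehicle (log2 fold change 2.76, adjusted p = 1.02e-07, edgeR). By adjusted p alone, 2 genes of this list were higher and 1 lower. The lower gene, named after its value was seen, was *Cxcl14*, with 12.3 ± 1.20 against 21.2 ± 0.715 CPM (log2 fold change -0.78). Every IL-1β sample of *Cxcl14* lay below every vehicle sample.

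The receptors of the CXCR2 ligands were at or near the floor. *Cxcr1* had 0 reads in all 8 samples, which allows up to 0.173 to 0.270 CPM, and *Cxcr2* had at most 2. *Ackr1*, which takes up these chemokines on erythrocytes and venules, had at most 1 read. Of 10 receptors and scavengers, 2 passed the filter and 1 was called higher. This was *Ackr3*, a scavenger of CXCL12, with 74.5 ± 1.63 CPM after IL-1β and 13.7 ± 0.388 CPM under vehicle (log2 fold change 2.45, adjusted p = 1.08e-25, edgeR).

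Of 20 genes for neutrophil growth, survival and attraction, 9 passed the filter, 4 were called higher and 5 were not called, with a median log2 fold change of 0.27. The 4 were *Lcn2* (8081 ± 252 against 285 ± 9.82 CPM), the complement gene *C3* (449.6 ± 4.13 against 24.3 ± 1.33), the pentraxin *Ptx3* (1049 ± 42.1 against 371 ± 7.08) and the cytokine *Lif* (18.2 ± 1.65 against 8.33 ± 0.476). *Csf3*, which encodes G-CSF, the main growth factor of neutrophils, had 1 to 5 reads per sample in both groups and was not tested. *Il6*, named after its values were seen, had 14 to 26 reads per IL-1β sample and 0 in each vehicle sample, and narrowly missed the filter. In IL-1β replicate 3, its 17 reads among 17104351 counts were just under 1 CPM on total counts. Its TMM-scaled mean after IL-1β was 1.35 ± 0.412 CPM. With no filter on low counts, 5 genes of this list were called.

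Genes upstream of chemokine transcription changed in part. Of 16 tested receptors and adaptors that drive chemokine genes, 5 were called higher, with log2 fold changes of 2.24 for *Irak3*, an inhibitor of IL-1 receptor signalling, 2.15 for *Tlr2*, 1.68 for the TNF receptor gene *Tnfrsf1b*, 1.15 for *Il1rap*, the co-receptor of IL-1, and 1.13 for *Traf3ip2*, the adaptor of the IL-17 receptor. The median of the list was 0.19. *Il1r1*, which encodes the signalling IL-1 receptor, had 34.0 ± 2.28 CPM after IL-1β and 35.8 ± 0.961 CPM under vehicle (log2 fold change -0.08, adjusted p = 0.263, edgeR).

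Of 20 tested transcriptional regulators, 7 were called higher and 1 lower (median 0.80). *Nfkbiz*, which encodes IκBζ, a nuclear cofactor of NF-κB at chemokine genes, had 275 ± 8.43 CPM after IL-1β and 44.3 ± 2.06 CPM under vehicle (log2 fold change 2.63, adjusted p = 1.45e-29, edgeR). The next were *Cebpd* (2.01), *Bcl3* (1.93) and *Nfkbia* (1.89), which encodes the inhibitor of NF-κB whose promoter window also held GGGAATTTCC. The gene called lower was *Fos* (log2 fold change -1.19), named after its value was seen. By adjusted p alone, 15 genes of this list were higher and 4 lower. Beside *Fos*, the lower genes, also named after their values were seen, were *Fosb* (-0.93), *Atf3* (-0.91) and *Egr1* (-0.36).

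Of 12 tested regulators of chemokine mRNA decay, 2 were called higher and none lower (median 0.02). *Zc3h12a* encodes Regnase-1, an RNase that cleaves inflammatory mRNAs, and had 103 ± 2.81 CPM after IL-1β and 5.03 ± 0.715 CPM under vehicle (log2 fold change 4.34, adjusted p = 5.04e-29, edgeR). *Zfp36l1* had a log2 fold change of 1.36. *Zfp36*, which encodes tristetraprolin, the protein known to bind ATTTA repeats such as those of *Cxcl1* and *Cxcl2* shown above, had 15.6 ± 1.90 and 22.1 ± 1.09 CPM (log2 fold change -0.49, adjusted p = 5.7e-06, edgeR) and did not pass the threshold on the fold change.

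Once secreted, these chemokines are held by proteoglycans and cut by proteases. All 12 genes of the proteoglycan list were tested, and 4 were called higher (median -0.03): *Tnfaip6* (log2 fold change 2.31), whose product binds chemokines and hyaluronan, *Cd44* (1.51), the heparan sulfate proteoglycan gene *Sdc4* (1.19) and *Vcan* (1.18). By adjusted p alone, 5 genes of this list were higher and 5 lower. The lowest of these, all heparan sulfate proteoglycan genes named after their values were seen, were *Gpc6* (-0.81), *Sdc3* (-0.76) and *Sdc2* (-0.70), with every IL-1β sample below every vehicle sample. Of 8 tested proteases, 3 were called higher (median 0.62), with log2 fold changes of 5.48 for *Mmp3*, 3.55 for *Mmp12* and 2.71 for *Mmp13*. *Mmp3* reached 1054 ± 69.0 CPM from 23.6 ± 1.47 CPM. Among 4 tested adhesion ligands for leukocytes, *Icam1* was called higher (1.46, median of the list 0.45).

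**Figure D4:**
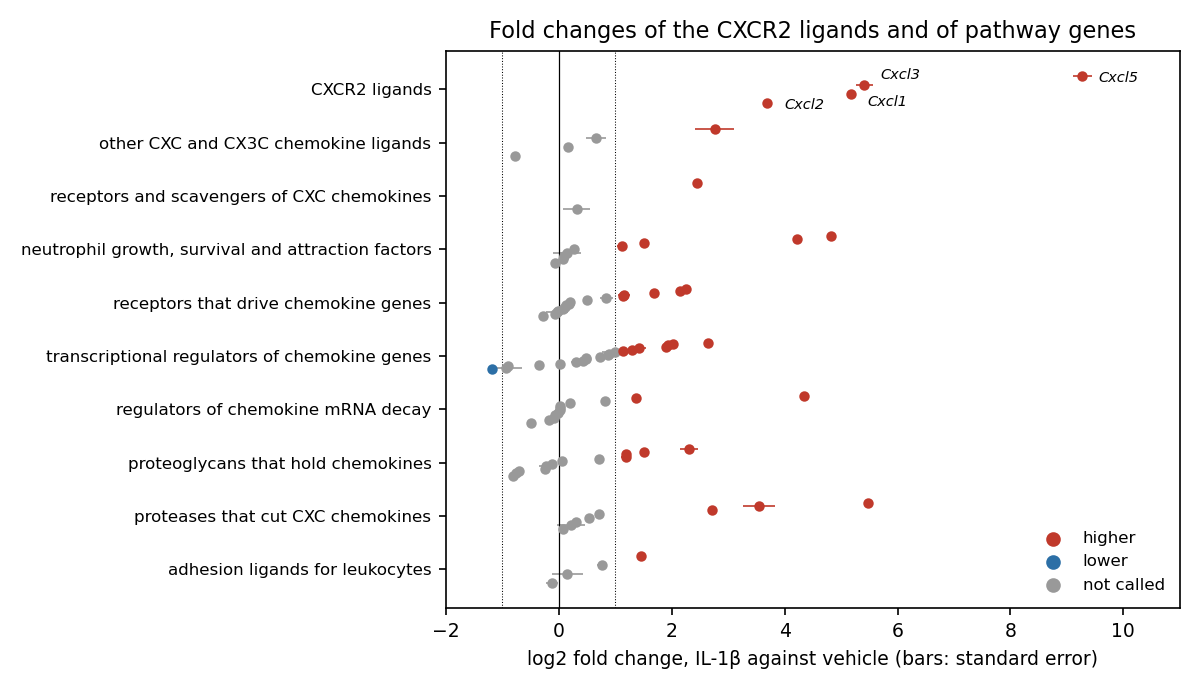
Log2 fold changes (IL-1β against vehicle, bars: SE worked back from the F statistic) of the CXCR2 ligands and of the tested genes in 9 pathway lists, 1 point per gene, red for called higher, blue for called lower and grey for not called, with dotted lines at 1 and -1. The ligands lie between 3.70 and 9.27, and the medians of the other lists between -0.03 and 1.38, the last from 2 tested genes. Single genes of these lists lie within the range of the ligands, up to 5.48 for *Mmp3*.

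Marker genes of the cells in the cultures were read beside the rise of the CXCR2 ligands. All 15 chondrocyte markers were present in both groups, with a summed level of 4455 to 4877 CPM after IL-1β and 16955 to 17615 CPM under vehicle, and 14 were called lower. Of 15 neutrophil markers, 6 had 0 reads in all samples (*Ly6g*, *Elane*, *Mpo*, *Ltf*, *Retnlg* and *Mrgpra2b*), and the sum was 1.59 to 1.84 CPM against 0.173 to 0.923. *Camp*, the only neutrophil marker that passed the filter, was called higher from 14 to 25 against 0 to 5 reads. The 15 macrophage markers summed to 30.8 to 34.6 CPM after IL-1β and 15.7 to 18.7 CPM under vehicle, mostly from *Cd68* and *Cd14*. Of these markers, 3 were tested and 1 was called higher (*Cd14*, log2 fold change 1.86). By adjusted p alone, *Cd68* was also higher (0.67). *Lyz2*, named after its value was seen, was lower (-0.60, adjusted p = 0.0364, edgeR), with every IL-1β sample below every vehicle sample. *Adgre1*, *C1qa*, *C1qb*, *C1qc*, *Tyrobp* and *Itgam* never exceeded 3 counts.

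The 10 endothelial markers summed to 10.9 to 11.7 CPM after IL-1β and 13.9 to 15.4 CPM under vehicle, with 2 tested and none called at these thresholds. *Erg*, named after its values were seen, made up 8.71 ± 0.377 and 12.4 ± 0.352 CPM of these sums. By adjusted p alone, *Erg* was lower (log2 fold change -0.51, adjusted p = 2.92e-05, edgeR). *Cdh5*, *Emcn*, *Tie1* and *Cldn5* never exceeded 3 counts. *Pecam1* had 0.314 ± 0.225 and 0.410 ± 0.157 CPM. Synovial fibroblast markers summed to 2082 to 2198 CPM against 928 to 977, with 5 of 10 tested and 2 called higher, *Prg4* (log2 fold change 1.23) and *Pdpn* (2.26). *Prg4*, lubricin, made up 2011 ± 47.1 and 856 ± 21.7 CPM of these sums, and chondrocytes of the superficial zone also express it. By adjusted p alone, 4 synovial fibroblast markers were higher and 1 lower. The lower one, named after its value was seen, was *Col3a1*, with 39.8 ± 1.54 against 50.3 ± 2.45 CPM (log2 fold change -0.34). Every IL-1β sample of *Col3a1* lay below every vehicle sample. *Thy1*, too scarce to be tested, had 0.175 ± 0.190 and 0.434 ± 0.184 CPM. The part of a change in cell make-up in the levels of *Cxcl1*, *Cxcl2*, *Cxcl3* and *Cxcl5* was not tested.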

How the data were processed

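RNA-Seq of 8 samples was analysed. The authors trimmed reads with cutadapt, aligned them with STAR to mm10 (GENCODE vM20) and counted them with featureCounts. The processing notes and the methods name different versions of STAR. The deposited values are whole-number read counts for each gene name, used as they are, beside a column of gene lengths in bases. Read length, strandedness, the treatment of multi-mapping reads, and whether RUVseq batch correction came before these counts are not given in the sources used here. Of the windows of 50 bases in the main transcripts, 0% in *Cxcl1*, 5.75% in *Cxcl2* and 6.31% in *Cxcl3* (shared with each other) and 3.08% in *Cxcl5* also occur in another gene, so a few reads could be lost or split.

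Samples were grouped by treatment label, and treatment was tested as the single term on TMM-scaled counts with edgeR 4.0.16, run in R 4.3.3 with limma 3.58.1. The common biological coefficient of variation was 4.11%. Each SE of an edgeR fold change is its size divided by the square root of the quasi-likelihood F statistic. It can understate the error of genes with few reads, such as *Cxcl3* and *Cxcl5* with vehicle. Other values used Python 3.11.15 with pandas 2.3.3, scipy 1.17.1, statsmodels 0.14.6 and numpy 2.4.6, and matplotlib 3.10.9 drew the figures. Positions and 3′ UTRs came from GENCODE vM21. Intervals for ratios of pooled counts are exact 95% intervals, and they and the floor of 3 counts cover counting error only. The code was tested on simulated data.

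The named genes are the 4 ligands, at most 4 called genes per list with the largest fold change and a mean of at least 1 CPM in the higher group, genes whose role the text needs, and the 3 genes most like each ligand. The members and lists were chosen with earlier results of these data known, and lists are described by counts and medians. *Il36a* and *Il36g*, listed among the neutrophil factors, have no row in the table used here. Alternatives were DESeq2 1.42.0, its size factors or the total library size, other filters, the replicate number as a block, 1 factor of unwanted variation, other fold thresholds, pseudocounts and lengths, and each sample left out in turn. The filter then asked for a CPM above 1 in as many samples as the smaller group held.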

Additional observations from a re-analysis of the deposited data

Results flagged for a closer look

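No sample of *Cxcl1*, *Cxcl2*, *Cxcl3* or *Cxcl5* stood apart from its group by Dixon's ratio at the 95% critical value for 4 samples. Over the genes of the lists and the genes most like the ligands, 16 of 244 groups of 4 had such a sample, where chance gives about 1 in 20, or 12.2. All values are CPM. Among genes upstream of the ligands, these were *Bcl3* in vehicle replicate 2 (25.8, others 23.3 to 23.7), *Il17ra* in vehicle replicate 1 (64.0, others 66.9 to 67.5), *Myd88* in IL-1β replicate 4 (73.0, others 66.0 to 67.0), *Tlr2* in IL-1β replicate 1 (63.6, others 56.7 to 57.3), *Tlr4* in vehicle replicate 3 (39.4, others 35.4 to 36.0) and *Traf3ip2* in vehicle replicate 3 (35.2, others 30.5 to 31.2). *Nos2*, one of the genes most like *Cxcl1*, had 73.9 in IL-1β replicate 1 (others 64.4 to 65.6), the sample in which *Cxcl1* was also highest with 457.

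Among neutrophil factors, *Hc* had 1.95 in IL-1β replicate 2 (others 1.19 to 1.26) and *Lta4h* 52.7 in vehicle replicate 2 (others 48.8 to 49.5). For proteoglycans, proteases and adhesion ligands, *Gpc6* had 39.7 in IL-1β replicate 2 (others 36.7 to 36.9), *Vcan* 17.8 in IL-1β replicate 3 (others 20.3 to 20.7), *Ctsl* 141 in IL-1β replicate 1 (others 146 to 147) and *Jam3* 12.5 in vehicle replicate 2 (others 9.20 to 9.69). Of the chondrocyte markers, *Col9a2* had 78.1 in vehicle replicate 3 (others 85.4 to 85.6), *Comp* 549 in vehicle replicate 4 (others 523 to 527) and *Hapln1* 253 in IL-1β replicate 1 (others 266 to 267).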

How the results depend on the processing

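Of 170 recomputed fold changes, differences and shares of the CXCR2 ligands, 157 kept their direction and their side of the threshold. Of 238 recomputed counts of calls in the lists, 208 were equal to the count reported and 227 were within 1.5 times of it. The 4 CXCR2 ligands were called under every alternative but 1: with a CPM above 1 required in all 8 samples, 2 were called, since *Cxcl3* and *Cxcl5* were no longer tested, and the calls among other CXC chemokines and neutrophil markers went to 0 each. Without 1 sample at a time, the log2 fold change was 5.14 to 5.20 for *Cxcl1*, 3.63 to 3.76 for *Cxcl2*, 5.33 to 5.51 for *Cxcl3* and 8.91 to 10.02 for *Cxcl5*. With a log2 fold change beyond 2, the calls went to 2 in the list of neutrophil factors and 2 in that of receptors and adaptors (*Tlr2* and *Irak3*). They went to 2 in the list of transcriptional regulators, 1 in that of mRNA decay and 1 in the proteoglycan list (*Tnfaip6*). Adhesion ligands had 0, chondrocyte markers 5, macrophage markers 0 and synovial fibroblast markers 1. With 2 counts added, the difference of *Cxcl3* and *Cxcl1* reversed to -0.028 (exact permutation test, p = 0.743); the cause was not tested. The difference in the share of *Cxcl3* was 0.421 to 0.610 percentage points without 1 sample, with an adjusted p of 0.0571 in 7 of the 8 exact permutation tests. On a log2(CPM + 0.25) scale, 1 of the 3 genes most like *Cxcl2* and 0 of those most like *Cxcl3* remained.

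Samples with the same replicate number did not deviate together (r across genes -0.0699 to 0.0416). Counting error in genes with few reads lowers such an r, so a pairing by number was not seen but is not excluded. With the replicate block, 4 ligands were called. Sign flips within replicate numbers left the differences between ligands at -1.48, 4.28, 1.67, 5.77 and 4.10, with an adjusted p of 0.15 from a smallest possible p of 0.125. Depth limits the vehicle level of *Cxcl5*, at 5 reads, and thereby the size of its fold change.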
